A study of Mus musculus with 20 samples.

Results

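The genes described here are 36 lysosomal genes chosen by name, and all 36 were found among the 23329 gene symbols of the raw count table. They encode soluble hydrolases, proteins of the lysosomal membrane and 3 transcription factors of the MiT/TFE family, and the cysteine cathepsins were left out of the choice. All 36 passed the filter on low counts and were tested together with every other gene, 15363 in all. They were placed in 6 roles, with 7 membrane proteins, 9 hydrolases of glycoproteins, glycolipid sugars and glycogen, 7 hydrolases of glycosaminoglycans, 7 lipid hydrolases and lipid carriers, 3 proteases and protective proteins, and 3 regulators.

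The lysosome is the acidic compartment in which a macrophage breaks down what it has engulfed and what autophagy delivers. Most of its soluble enzymes each remove one kind of bond, so that a glycolipid, a glycosaminoglycan chain or a cholesteryl ester is taken apart in a fixed order, and the loss of a single enzyme causes a storage disease, many of which affect the brain. Tfeb, Tfe3 and Mitf are helix-loop-helix factors that enter the nucleus when nutrient signalling at the lysosomal surface falls, and they bind an E-box found before the start sites of many lysosomal genes. In microglia, the resident macrophages of the brain, lysosomal genes such as Grn and Cd68 are known for their part in the clearance of myelin, synapses and dead cells.

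RNA from sorted myeloid cells of C57BL/6 mice was sequenced in 20 libraries, which fall into 6 groups. Microglia (MG) and bone-marrow-derived macrophages (BMDM) came as matched pairs from 3 gliomas of a genetically engineered model (GEMM) and from 3 GL261 gliomas, GL261 being a transplantable mouse glioma line. The other groups were microglia of normal brain (3 libraries) and Ly6C high monocytes of blood (5 libraries). The question the design poses is how the origin of a macrophage and the tumour it sits in shape its expression. GEMM gliomas were started with 300000 DF1 cells, a bird fibroblast line that releases the virus, carrying RCAS-PDGFB-HA and RCAS:shP53, injected into the right frontal cortex at week 6. The hosts were Flt3:Cre Rosa26:mTmG, and in them a cell whose precursors expressed Flt3 switches from TdTomato to GFP. Microglia were sorted as Cd45+, Cd11b+, Ly6c-, Ly6g-, GFP- and TdTomato+, and BMDM by the same gate with GFP+ and TdTomato-. A marrow-derived cell that had not switched would therefore sort with the microglia. How the GL261 tumours were made, the ages of the normal and blood donors, the gate for monocytes, and whether the groups were sequenced together are not stated in the labels or files at hand. Library numbers name tumours or animals, and for the normal and blood groups no label says that they are separate animals, so their p-values measure the spread between these samples. In counts per gene, monocytes 64818 and 64819 differed by a chi-square of 3.08 per degree of freedom, and 64820 and 64821 by 3.97. The other monocyte pairs differed by 32.6 to 123.2. If a close pair came from the same animal, the monocytes would hold fewer than 5 independent samples, and this was not tested.

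Total counts ran from 18113450 to 36297826 in the brain libraries and from 5077787 to 7801073 in the monocytes. The microglia list (7 of 7 genes with counts, none at 0 in any group) summed to 17201 to 19774 CPM (counts scaled to a common library size with TMM) in normal microglia, 4751 to 9642 in GEMM microglia, 758 to 3808 in GL261 microglia and 243 to 1677 in BMDM. Both libraries of GL261 tumour 80769 stood apart: its microglia had the lowest of those sums, 758, and its border-associated macrophage list summed to 713 CPM in microglia and 3566 in BMDM against at most 441 in the other 4 GL261 libraries. Its classical monocyte list summed to 4481 CPM in microglia and 22868 in BMDM, against 20.4 to 308 in those 4. The BMDM list summed to 9.36 to 12.4 CPM in normal microglia, 91.2 to 141 in GEMM microglia and 97.3 to 196 in GL261 microglia. It summed to 878 to 1032 CPM in GEMM BMDM, 401 to 748 in GL261 BMDM and 3652 to 4931 in monocytes. Its gene Itgal made up most of the sum in GEMM microglia (mean 77 CPM) and in GL261 microglia (mean 85.3 CPM). In the BMDM of GEMM tumour 68702 the neutrophil list summed to 1908 CPM, against 93.6 and 10.6 in the other 2 GEMM BMDM libraries. The oligodendrocyte precursor or glioma list (5 of 5 with counts) summed to 363 to 782 CPM in GL261 microglia, 127 to 184 in GEMM microglia and 1.55 to 4.01 in normal microglia. Monocytes held 1258 to 16137 CPM of neutrophil genes and were the only group with Xist above 2.88 CPM (142 to 646), so sex cannot be told apart from that group. Ribosomal precursor RNA, Rn45s, took 13.5% and 14.3% of counts in monocytes 64820 and 64821 and at most 1.62% elsewhere. In such bulk samples fewer cells of a type and less RNA per cell cannot be told apart.

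The promoters of several of these genes carry the E-box that the MiT/TFE factors bind, and the 5 sequences printed here are those with its extended form, together with that of Lamp1, which had the most copies of the core. RefSeq promoters (GRCm38.p6, 250 bases before to 50 bases after each start site) were matched for 32 of the 36 genes. Each sequence is 120 bases on the gene's own strand, 5′ to 3′, ending at most 30 bases after the start site, with the motif in capitals, TCACGTGA in the first 4 and CACGTG in Lamp1.
Gla, chrX:134601136-134601255, strand -: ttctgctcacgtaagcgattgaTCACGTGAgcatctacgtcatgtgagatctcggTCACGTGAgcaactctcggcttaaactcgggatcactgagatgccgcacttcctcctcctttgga
Ctsa, chr2:164833683-164833802, strand +: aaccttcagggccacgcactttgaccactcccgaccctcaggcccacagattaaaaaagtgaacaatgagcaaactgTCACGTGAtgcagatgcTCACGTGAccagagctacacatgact
Mcoln1, chr8:3500417-3500536, strand +: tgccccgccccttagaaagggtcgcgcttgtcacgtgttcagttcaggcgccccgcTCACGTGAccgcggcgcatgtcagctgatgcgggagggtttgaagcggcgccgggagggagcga
Cln3, chr7:126583295-126583414, strand -: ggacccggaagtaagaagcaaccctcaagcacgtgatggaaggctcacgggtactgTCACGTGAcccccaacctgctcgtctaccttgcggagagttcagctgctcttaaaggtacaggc
Lamp1, chr8:13159044-13159163, strand +: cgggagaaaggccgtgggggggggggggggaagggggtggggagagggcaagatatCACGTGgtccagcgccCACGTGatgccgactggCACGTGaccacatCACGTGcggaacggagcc
Gla (alpha-galactosidase A) and Ctsa (protective protein for beta-galactosidase and neuraminidase) each show 2 copies of the extended motif, and Mcoln1 (the calcium channel mucolipin 1) and Cln3 each show 1. The Lamp1 stretch shows 4 copies of the core. The Gla, Ctsa, Mcoln1 and Cln3 start sites of RefSeq lie within the spans of these genes in GENCODE, so they belong to some of the transcripts only. The core CACGTG, which reads the same on both strands, was present for 9 of the 32 genes (28.1%), against 8.09% of 27025 genes with a promoter in the table. The extended TCACGTGA, which contains the core, was present for 4 of 32 (12.5%) against 1.12%. The related CATGTG, searched on both strands, was present for 8 of 32 (25%) against 15.9%, and its extended form TCATGTGA for 4 of 32 (12.5%) against 1.15%. A match describes letters in a window and not binding.

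Read per kilobase of exonic sequence, which allows genes to be compared, Psap was the most abundant of the 36 in every group, from 1065.5 CPM per kilobase in normal microglia to 3487 in GEMM BMDM. Psap encodes prosaposin, the precursor of the saposins that present glycolipids to their hydrolases. In GEMM microglia Grn (progranulin, 1535), Cd68 (macrosialin, 1223), Lamp1 (1028), Hexa (a hydrolase of ganglioside breakdown, 706) and Ctsa (564) came next. Sgsh (heparan N-sulfatase, 2.42 CPM per kilobase), Mitf (5.60) and Tfeb (7.29) were the least abundant there. Arsb, which removes sulfate from dermatan and chondroitin sulfate, stood at 64.1 CPM per kilobase in normal microglia and 4.80 in monocytes, and Pla2g15, the lysosomal phospholipase A2, at 191 and 13.

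Most of these genes were at their highest in the tumour-associated cells of the GEMM. By group mean, 18 of the 36 were highest in GEMM microglia, 9 in GEMM BMDM, 6 in normal microglia, 2 in monocytes, 1 in GL261 BMDM and none in GL261 microglia. By contrast 21 were lowest in monocytes, 9 in GL261 microglia, 4 in normal microglia and 2 in GL261 BMDM. The same counts were not made over all tested genes, so whether the 36 differ from other genes in this cannot be told. Exons on opposite strands overlap for some of these genes, and without a known strand setting their reads cannot be told apart: Sgsh shares 21.6% of its exonic bases with Card14, Hexa 12.8% with Tmem202, Ctsa 10.5% with Pltp, Lamp1 9.3% with Grtp1 and Cln3 7.6% with Apobr.

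Together the 36 genes summed to 32214 ± 944 CPM (SD, n = 3) in GEMM microglia, 28570 ± 6521 (n = 3) in GEMM BMDM, 23489 ± 1224 (n = 3) in GL261 BMDM, 17234 ± 767 (n = 3) in normal microglia, 16341 ± 3620 (n = 3) in GL261 microglia and 14447 ± 1548 (n = 5) in monocytes. The sums of GL261 microglia, 13355 to 20367, overlapped those of normal microglia and of monocytes. The sums of GEMM microglia, 31607 to 33302, lay inside the range of the GEMM BMDM, 22839 to 35664. Psap alone made up a large part of these sums. Without it the order of the first 2 groups held (24541 and 19002 CPM), and monocytes stayed lowest (8048).

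**Figure D1:**
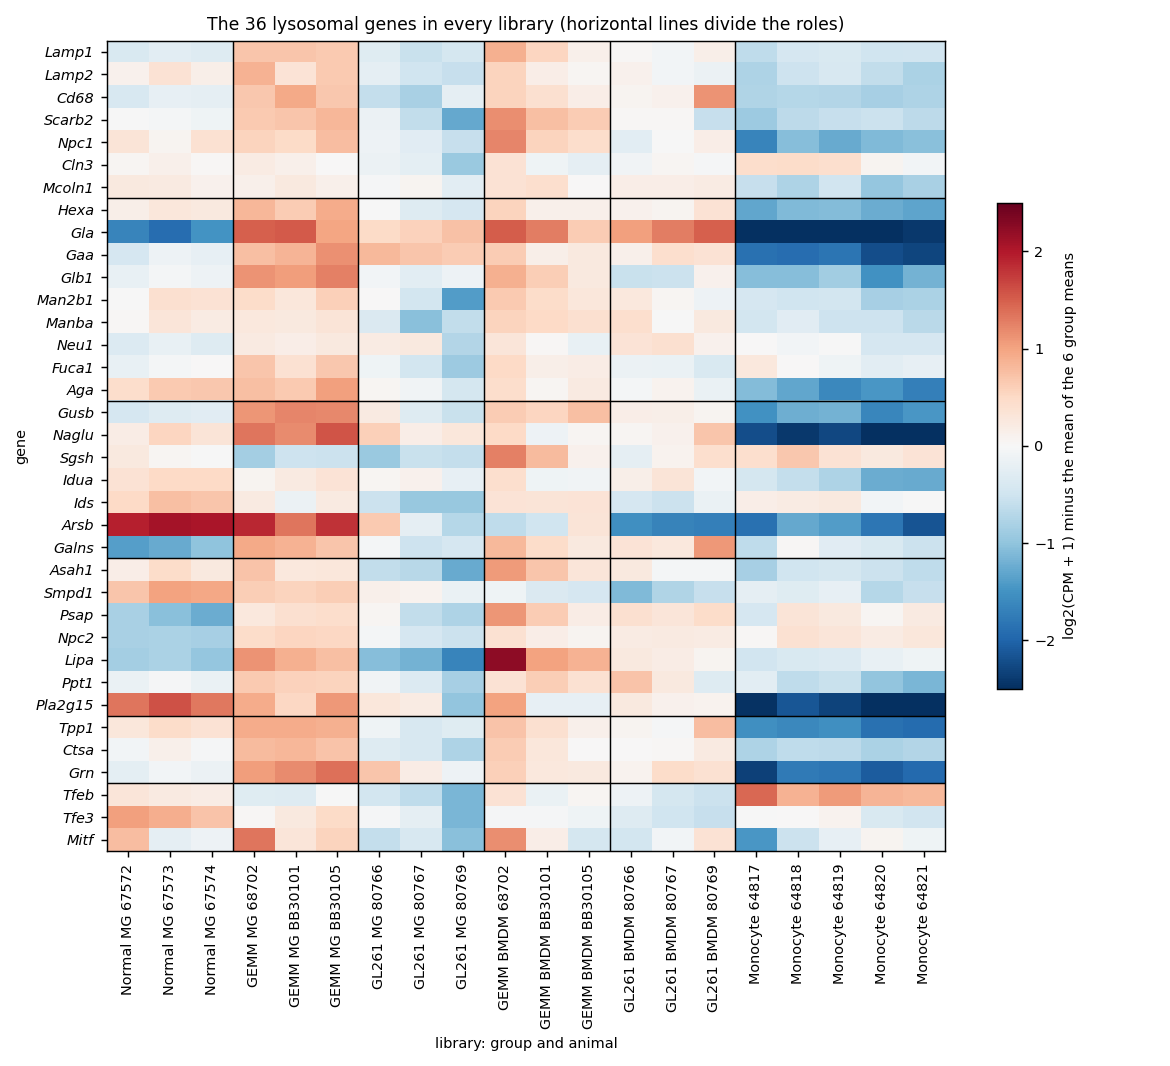
Heat map of the 36 genes (y axis, ordered by role) in each of the 20 libraries (x axis, by group and animal). Colour gives log2(CPM + 1) minus the mean of the 6 group means, and GEMM microglia and GEMM BMDM are red for most genes while Gla is deep blue in all 5 monocyte libraries.

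**Figure D2:**
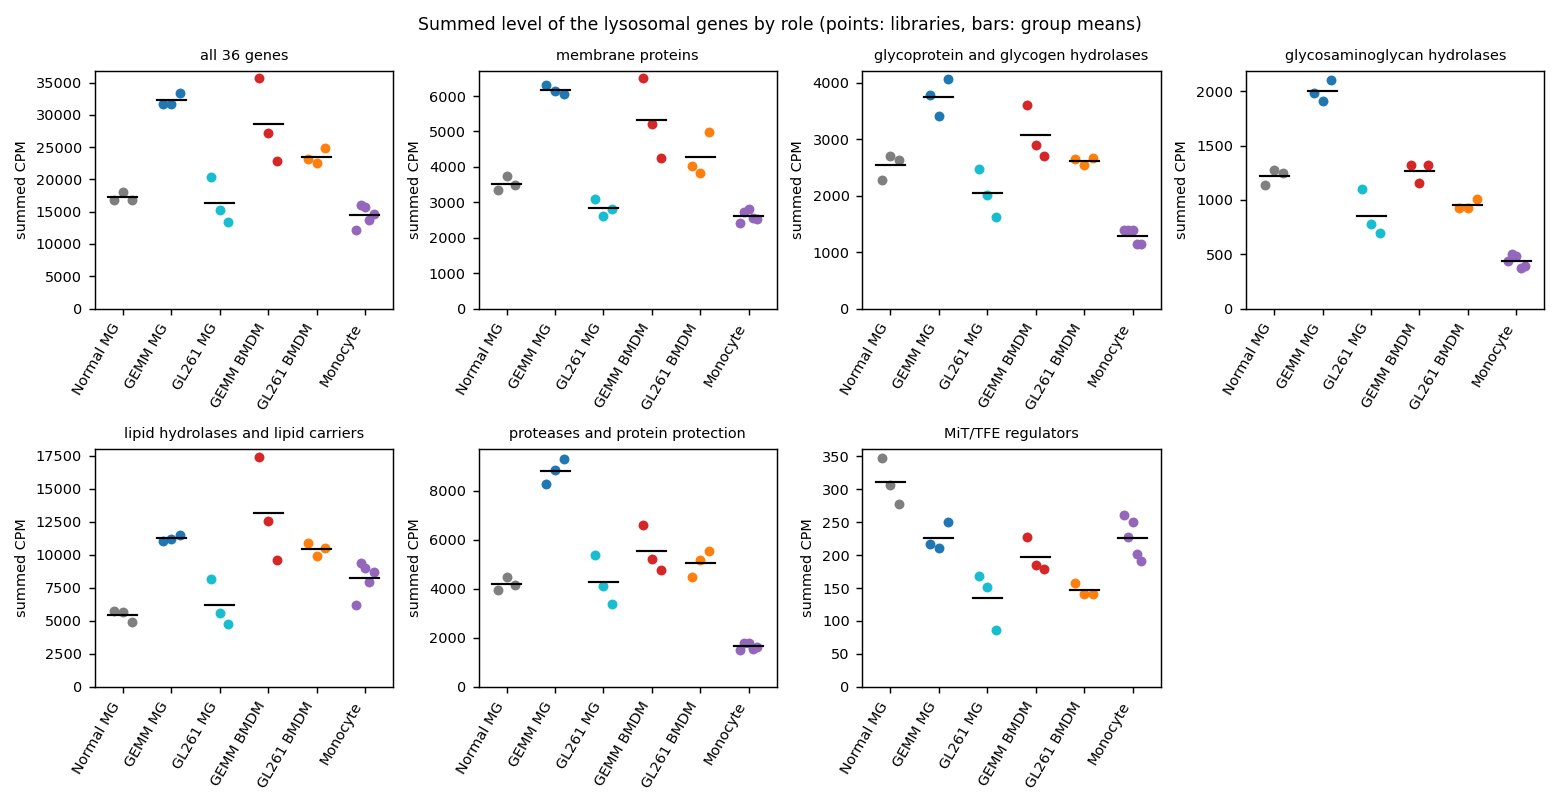
Summed CPM (y axis, linear from 0) of all 36 genes and of each role, by group (x axis). Points are libraries and bars are group means, and the regulators are the only role with the highest mean in normal microglia, 310.8 CPM.

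The membrane proteins used as lysosome markers followed this order in part. Lamp1 averaged 2749 ± 52 CPM in GEMM microglia (SD, n = 3), 2513 ± 659 in GEMM BMDM (n = 3), 1762 ± 133 in GL261 BMDM (n = 3), 1382 ± 56 in normal microglia (n = 3), 1276 ± 112 in GL261 microglia (n = 3) and 1231 ± 79 in monocytes (n = 5). Lamp2 averaged 1344 ± 246, 1042 ± 200, 843 ± 74, 993 ± 97, 642 ± 86 and 563 ± 65 CPM in the same order of groups, and Cd68 averaged 1537 ± 172, 1179 ± 159, 1292 ± 574, 743 ± 57, 627 ± 131 and 532 ± 18 CPM. All 3 were lowest in monocytes, and all 3 were highest in GEMM microglia.

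Microglia of the GEMM tumours held more lysosomal RNA than microglia of normal brain. Of the 36 genes, 18 (50%) rose and 3 (8.33%) fell, against 23.0% of all tested genes that rose and 20.9% that fell in this comparison (edgeR quasi-likelihood test, Benjamini-Hochberg adjusted p under 0.05). The median log2 fold change of the 36 was 0.57, beside -0.02 over all tested genes. All 3 proteases and protective proteins rose, as did 5 of 9 hydrolases of glycoproteins, glycolipid sugars and glycogen, 4 of 7 lipid genes, 3 of 7 membrane proteins and 3 of 7 glycosaminoglycan hydrolases. The BMDM list was also higher in these libraries (above), and its part in the result was not tested.

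The largest rise was that of Gla. Its level was 19.5, 16.3 and 21.8 CPM in the 3 normal libraries and 182, 186 and 127 CPM in the 3 GEMM microglia libraries (log2 fold change 3.10 ± 0.22 SE, adjusted p = 2.01e-08). The lowest tumour value was thus far above the highest normal one. Galns, which removes sulfate from keratan and chondroitin sulfate, went from 15.5, 16.7 and 20.1 CPM to 81, 77.3 and 67.8 CPM (2.11 ± 0.23, adjusted p = 1.56e-06). Lipa, the acid lipase that frees cholesterol from its esters, went from 122, 128 and 113 CPM to 485, 415 and 375 CPM (1.81 ± 0.27, adjusted p = 3.6e-05). For both the groups did not overlap. Gusb, beta-glucuronidase, went from 357, 381 and 392 CPM to 1030, 1111 and 1103 CPM (1.52 ± 0.17, adjusted p = 2.58e-06). Grn, which protects lysosomal enzymes and is needed for their activity, went from 1959, 2195 and 2087 CPM to 4781, 5255 and 5966 CPM (1.36 ± 0.21, adjusted p = 4.49e-05). Psap (1.39) and its fellow lipid carrier Npc2, which hands cholesterol to Npc1 (1.32), rose by like amounts, whereas Npc1 itself did not pass the test (0.34 ± 0.20, adjusted p = 0.171).

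Among the membrane proteins Lamp1, a heavily glycosylated protein of the limiting membrane, went from 1327, 1439 and 1379 CPM to 2771, 2786 and 2689 CPM (0.99 ± 0.16, adjusted p = 9.55e-05, edgeR). Its relative Lamp2, the receptor of chaperone-mediated autophagy, stood at 928, 1105 and 948 CPM against 1581, 1090 and 1361 CPM, which overlap, and did not pass (0.44 ± 0.17, adjusted p = 0.0506). Cd68, the macrophage member of that family, went from 678, 780 and 772 CPM to 1439, 1735 and 1437 CPM (1.05 ± 0.23, adjusted p = 0.0012), and Scarb2, a sorting receptor of the lysosomal membrane, rose by 0.79 ± 0.22 (adjusted p = 0.00783). The other 8 genes that rose were Glb1 (1.27), Gaa (1.17), Naglu (1.02), Ctsa (0.77), Ppt1, the palmitoyl thioesterase (0.72), Fuca1, the fucosidase (0.66), Hexa (0.58) and Tpp1 (0.55). The members that did not pass, besides the regulators, lay between -0.55 (Pla2g15) and 0.49 (Neu1).

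The 3 genes that fell were Sgsh (-0.78 ± 0.24, adjusted p = 0.0134), Ids, the iduronate sulfatase (-0.55 ± 0.14, adjusted p = 0.00503), and the regulator Tfe3 (-0.62 ± 0.22, adjusted p = 0.0272). Sgsh was low throughout, with 17 to 20.4 CPM in normal and 9.06 to 11.7 CPM in GEMM microglia. This count of falls is small and changed with single libraries: it was 1 without normal microglia 67572, without GEMM microglia 68702 or without GEMM microglia BB30101, and 5 with library-size scaling alone.

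Microglia of GL261 tumours showed the reverse balance against the same normal libraries. Here 5 of the 36 genes (13.9%) rose and 18 (50%) fell, against 30.6% and 27.2% of all tested genes, with a median log2 fold change of -0.47 beside 0.01 over all genes. All 4 membrane proteins that passed fell, as did both regulators that passed. The balance depended on the scaling. With library sizes alone, without TMM, the median of all genes moved by 0.31 to 0.32, 8 of the 36 genes rose and 9 fell, and the median of the 36 was -0.17. Relative to the median of all genes the 36 stood at -0.48 with TMM and -0.49 without it. A change of scaling shifts all genes by nearly the same amount, so this distance could not move and is no check. TMM factors were 1.17 to 1.28 in GL261 microglia and 0.88 to 0.95 in GEMM microglia.

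The 5 genes that rose in GL261 microglia were Gla, Gaa, Galns, Psap and Npc2. Gla stood at 88.7, 94.7 and 106 CPM, above every normal library (2.33 ± 0.22, adjusted p = 1.26e-07, edgeR). Gaa, acid maltase, went from 147, 180 and 171 CPM in normal to 345, 317 and 304 CPM in GL261 microglia (0.96 ± 0.16, adjusted p = 8.5e-05). Galns stood at 40.1, 28.7 and 30.8 CPM (0.93 ± 0.22, adjusted p = 0.00165). All 3 also rose on library sizes alone. Psap passed narrowly at 6159, 3879 and 3498 CPM (0.63 ± 0.25, adjusted p = 0.0377). It did not pass with only the groups compared, without any 1 of the 3 normal libraries or without GL261 microglia 80766, with values from 0.34 to 0.68.

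The largest falls were those of Arsb, Pla2g15, Ids and Tfe3. Arsb went from 365, 403 and 392 CPM in normal to 150, 80.7 and 57 CPM in GL261 microglia (-2.01 ± 0.31, adjusted p = 3.24e-05, edgeR). Pla2g15 went from 541, 646 and 539 CPM to 261, 249 and 109 CPM (-1.48 ± 0.32, adjusted p = 0.000664). In both the library of tumour 80769 was the lowest, and the groups did not overlap. Ids fell by 1.47 on the log2 scale (adjusted p = 2.85e-07). Asah1, acid ceramidase, stood at 473, 445 and 300 CPM against 808, 998 and 859 CPM (-1.13 ± 0.21, adjusted p = 0.00016), and Smpd1, acid sphingomyelinase, fell by 0.89 (adjusted p = 0.00014). All 5 also fell on library sizes alone, as did Tfe3. Tfeb fell by 0.98, also on library sizes alone. Falls from -0.84 to -0.48 were those of Sgsh, Manba, Man2b1 (alpha-mannosidase), Aga, Lamp2, Npc1 and Cln3, of which Sgsh, Man2b1, Lamp2, Npc1 and Cln3 did not pass on library sizes alone.

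Scarb2, Hexa, Tpp1 (tripeptidyl peptidase 1) and Ctsa passed the test in both comparisons with opposite signs. The same count was not made over all tested genes, so whether 4 is many cannot be told. Scarb2 stood at 0.79 in GEMM and -0.55 in GL261 microglia, Hexa at 0.58 and -0.47, Tpp1 at 0.55 and -0.63, and Ctsa at 0.77 and -0.49, all as log2 fold changes against the same normal libraries, which the 2 comparisons share. None of the 4 falls in GL261 microglia passed on library sizes alone, where they stood at -0.26, -0.16, -0.32 and -0.18. That of Scarb2 also failed by DESeq2, without a filter, with only the groups compared, and without any 1 of the 3 normal libraries or GL261 microglia 80767 or 80769. That of Hexa failed without 80767, without 80769 or with only the groups compared, and that of Ctsa without 80769 or with only the groups compared. The rise of Tpp1 in GEMM microglia failed on library sizes alone and without normal microglia 67572 or 67574 or GEMM microglia 68702 or BB30101.

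**Figure D3:**
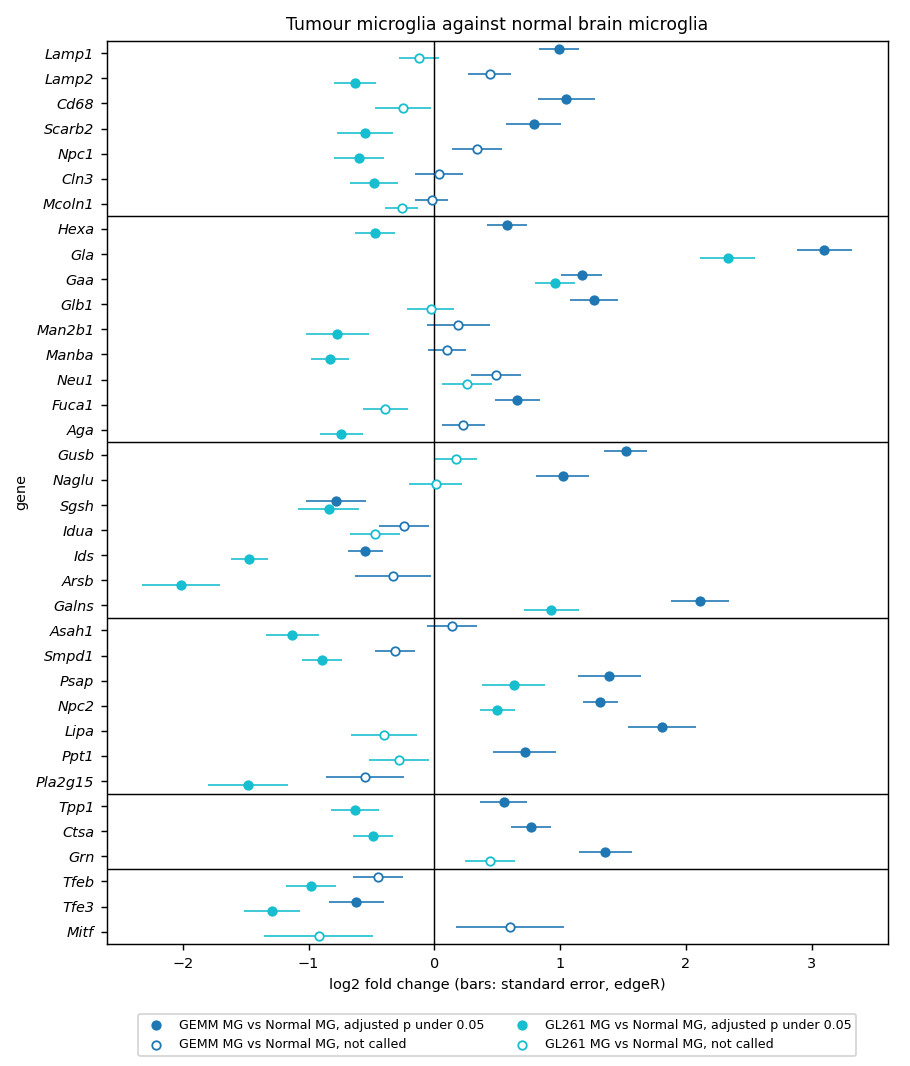
Log2 fold change (x axis, bars are standard errors) of each of the 36 genes (y axis, by role) in GEMM microglia and in GL261 microglia against the same 3 normal libraries. Filled points passed at an adjusted p under 0.05, and for Gla both points lie above 2 while for Arsb only the GL261 point, at -2.01, is filled.

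Compared directly, GL261 microglia held less of nearly all these transcripts than GEMM microglia. Of the 36 genes 31 (86.1%) were lower and 0 were higher by edgeR's test, against 15.5% of all tested genes lower and 18.8% higher. No gene was higher at an unadjusted p under 0.05 either, and DESeq2 called 31 lower and 0 higher. The median log2 difference was -0.97, beside 0.04 over all genes. On library sizes alone 22 of the 36 were lower, the median was -0.53 with all genes at 0.48, and 5 genes (Mcoln1, Gaa, Neu1, Sgsh and Idua) turned positive without passing. Relative to all genes the median was -1.01 on both scales, a distance that a change of scaling leaves nearly unchanged by construction. All 7 lipid genes, all 3 proteases and protective proteins and all 3 regulators were lower, with 6 of 7 membrane proteins, 7 of 9 hydrolases of glycoproteins, glycolipid sugars and glycogen, and 5 of 7 glycosaminoglycan hydrolases.

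Lipa differed most. It stood at 485, 415 and 375 CPM in GEMM and at 106, 98.3 and 70.7 CPM in GL261 microglia (-2.21 ± 0.27, adjusted p = 1.92e-05, edgeR), with all GEMM libraries far above all GL261 libraries. Arsb, at 353, 241 and 332 CPM against 150, 80.7 and 57 CPM, was next (-1.69 ± 0.31, adjusted p = 0.000544). Mitf was low and scattered, at 50.7, 24.2 and 29.3 CPM against 12.6, 14.5 and 8.98 CPM (-1.53 ± 0.44, adjusted p = 0.0122). Gusb stood at 1030, 1111 and 1103 CPM against 561, 383 and 325 CPM (-1.35 ± 0.17, adjusted p = 2.62e-05). Cd68, at 1439, 1735 and 1437 CPM against 596, 514 and 771 CPM, was lower as well (-1.29 ± 0.23, adjusted p = 0.000385), and so was Lamp1 (-1.11). Mcoln1, Gaa, Neu1 (sialidase), Sgsh and Idua (alpha-L-iduronidase) did not pass, with differences from -0.24 to -0.07.

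The difference moved with other measures that were higher or lower in the same libraries. The microglia list and the oligodendrocyte precursor or glioma list differed between these groups as given above. The sum of the glioma list went in the direction opposite to the lysosomal genes, as did Olig1, Olig2, Cspg4 and Sox10. Its other gene, Pdgfra, was higher in GEMM microglia (mean 45.4 CPM) than in GL261 microglia (12.5). The part of both lists in the result was not tested. Without both libraries of tumour 80769, which had the lowest value within GL261 microglia for 27 of the 36 genes, 25 were lower, and Cln3, Psap, Pla2g15, Tfeb, Tfe3 and Mitf no longer passed. Tumour model and any sequencing run cannot be told apart.

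Within the GEMM tumours the 2 lineages differed in fewer genes. BMDM were higher than microglia of the same tumours in 1 of the 36 genes (2.78%) and lower in 9 (25%), against 12.7% and 8.10% of all tested genes, with a median log2 fold change of -0.30 beside 0.01. The 9 were Hexa, Gaa, Glb1 (beta-galactosidase), Aga (aspartylglucosaminidase), Gusb, Naglu, Arsb, Smpd1 and Grn, and none of the membrane proteins or regulators passed. The number of lower genes depended on single libraries, being 4 without the microglia of tumour BB30105 or without the BMDM of BB30101 or of BB30105, and 14 without the BMDM of 68702, the library with the neutrophil transcripts, which held the highest value among GEMM BMDM for 31 of the 36 genes.

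Arsb showed the widest gap, at 353, 241 and 332 CPM in GEMM microglia and 60.9, 66.3 and 119 CPM in GEMM BMDM (-1.91 ± 0.31, adjusted p = 0.000288, edgeR). Its exons share 32.3% of their bases with Gm26527 on the opposite strand, a transcript that the count table does not list. Naglu, which removes N-acetylglucosamine from heparan sulfate, stood at 320, 290 and 378 CPM against 178, 115 and 132 CPM (-1.22 ± 0.21, adjusted p = 0.000523). Smpd1 stood at 65.9, 62.8 and 65.3 CPM against 39.5, 33 and 31.5 CPM (-0.90 ± 0.16, adjusted p = 0.00065), and Grn at 4781, 5255 and 5966 CPM against 3495, 2762 and 2728 CPM (-0.83 ± 0.20, adjusted p = 0.00694). None of these 4 overlapped. Sgsh, the single gene that was higher, stood at 9.06, 11.7 and 11.4 CPM against 42.2, 30.4 and 18.6 CPM (1.50 ± 0.24, adjusted p = 0.000238). Without the BMDM of BB30105 the number of higher genes was 2.

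In the GL261 tumours BMDM were higher than microglia in 12 of the 36 genes (33.3%) and lower in 2 (5.56%), against 10.7% and 6.81% of all tested genes, with a median of 0.41 beside -0.08. The 12 were Cd68, Gla, Manba (beta-mannosidase), Sgsh, Ids, Galns, Asah1, Psap, Npc2, Lipa, Tpp1 and Ctsa, and the 2 were Arsb and Smpd1. On library sizes alone 5 were higher and 3 lower (Arsb, Smpd1 and Gaa), the median of the 36 was 0.11 with all genes at -0.38, and 6 genes changed sign. A fit with only these 6 libraries called 1 higher (Lipa) and 1 lower (Arsb). Over all tested genes that fit called 833 in both directions together, against 1646 higher and 1046 lower in the main fit and 3962 on library sizes alone. Without both libraries of tumour 80769, or without its BMDM alone, the number of the 36 that were higher was 5. It was 7 without only its microglia or without the microglia of 80767.

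Lipa, at 106, 98.3 and 70.7 CPM in GL261 microglia and 264, 253 and 235 CPM in GL261 BMDM, was higher in every BMDM library (1.45 ± 0.27, adjusted p = 0.000967, edgeR). Cd68 stood at 596, 514 and 771 CPM against 948, 972 and 1955 CPM (1.04 ± 0.23, adjusted p = 0.00382), and in both lineages the library of tumour 80769 was the highest. Galns stood at 40.1, 28.7 and 30.8 CPM against 53.1, 50.5 and 89.3 CPM (0.95 ± 0.22, adjusted p = 0.00591) and did not pass without the BMDM of 80769 (0.60, adjusted p = 0.0592). Asah1 stood at 473, 445 and 300 CPM against 862, 701 and 697 CPM (0.89 ± 0.21, adjusted p = 0.00573). Arsb, at 150, 80.7 and 57 CPM against 32.1, 29.2 and 28.1 CPM, was lower in BMDM as in the GEMM (-1.69 ± 0.31, adjusted p = 0.00108), and so was Smpd1 (-0.84 ± 0.16, adjusted p = 0.00156). Across the 2 models, which share no library, 3 genes passed with the same sign (Sgsh, Arsb and Smpd1) and none with opposite signs. They were 3 of the 10 genes called in the GEMM and 3 of the 14 called in GL261. These counts were not made over all tested genes, so whether they are unusual cannot be told.

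The replicate number was also used as a block, which pairs the microglia and BMDM of a tumour, in a fit to the tumour libraries only. There 8 of the 36 genes passed in the GEMM, where Hexa and Glb1 were lost. In GL261 10 passed, where Sgsh, Ids, Psap, Tpp1 and Ctsa were lost and 1 was gained. Fits without a block to only the groups compared gave 7 and 2. The block fit differs from the main fit in its libraries as well as in the pairing, so the losses cannot be assigned to the pairing.

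The lineage difference itself was compared between models by an interaction term, the BMDM to microglia difference in GL261 minus that in the GEMM. It was positive for 35 of the 36 genes with a median of 0.60 beside -0.07 over all genes, and 5 genes (13.9%) passed upward and 0 downward by edgeR, against 0.605% and 1.02% of all tested genes. None was negative at an unadjusted p under 0.05, nor by DESeq2. The 5 were Cd68 (1.43 ± 0.32, adjusted p = 0.032), Galns (1.27 ± 0.31, adjusted p = 0.0452), Ctsa (1.02 ± 0.23, adjusted p = 0.0286), Hexa (0.95 ± 0.22, adjusted p = 0.0364) and Npc2 (0.82 ± 0.20, adjusted p = 0.0441). For Cd68 the fold change of BMDM over microglia was -0.38 in the GEMM and 1.04 in GL261, for Ctsa -0.45 and 0.57, and for Hexa -0.52 and 0.43.

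These 5 calls were not stable. DESeq2 called 12, the fit without a filter 1, the fit on library sizes alone 0 (26 of 36 positive, median 0.32 with all genes at -0.36), the fit with only these 12 libraries 0, the replicate block 2 (Cd68, 1.36, adjusted p = 0.0411, and, newly, Gla), and the fit without both libraries of tumour 80769 called 1. Leaving out 1 library at a time gave 0 without the GEMM BMDM of BB30101 or BB30105, 1 without the GL261 microglia of 80767 or the GL261 BMDM of 80769, 2 without the GEMM microglia of 68702 or the GL261 microglia of 80769, 3 without the GEMM microglia of BB30105, 8 without the GEMM microglia of BB30101 or the GL261 BMDM of 80767, 9 without the GL261 microglia of 80766 and 11 without the GEMM BMDM of 68702.

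**Figure D4:**
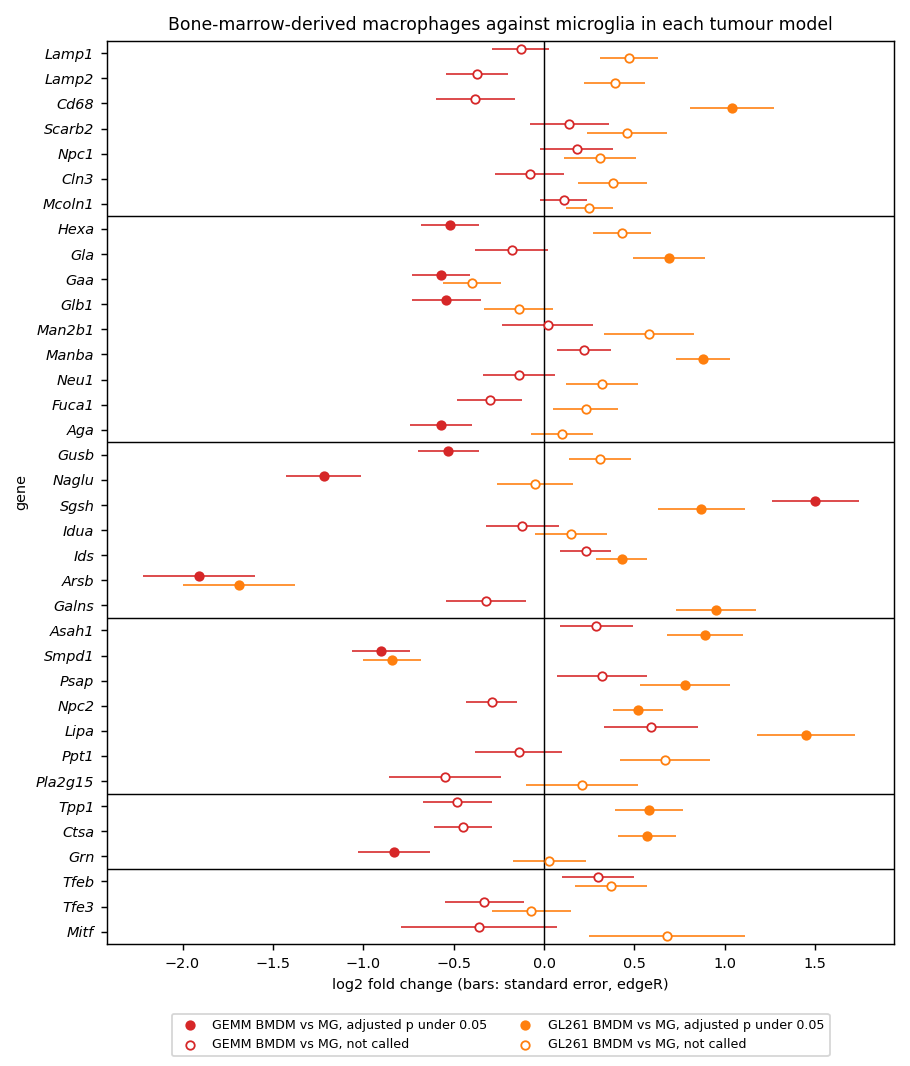
Log2 fold change (x axis, bars are standard errors) of BMDM over microglia for each of the 36 genes (y axis, by role) in the GEMM and in GL261 tumours. Filled points passed at an adjusted p under 0.05, and the GL261 point lies to the right of the GEMM point for 35 genes, Sgsh being the exception.

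BMDM of the 2 models differed less than their microglia did. GL261 BMDM were lower than GEMM BMDM in 11 of the 36 genes (30.6%) and higher in 0 by edgeR, against 9.46% of all tested genes lower and 10.2% higher, with a median of -0.29 beside -0.04. No gene was higher at an unadjusted p under 0.05, and DESeq2 called 12 lower and 0 higher. Arsb stood at 60.9, 66.3 and 119 CPM in the GEMM and 32.1, 29.2 and 28.1 CPM in GL261 BMDM (-1.46 ± 0.31, adjusted p = 0.0033). Lipa stood at 1061, 450 and 410 CPM against 264, 253 and 235 CPM (-1.35 ± 0.26, adjusted p = 0.00174), with the GEMM library of 68702 far above the others. Scarb2, at 388, 290 and 269 CPM against 176, 176 and 115 CPM, was lower (-1.02 ± 0.22, adjusted p = 0.00391), and so was Glb1, at 163, 135 and 104 CPM against 59.7, 60.5 and 95.2 CPM (-0.90 ± 0.19, adjusted p = 0.00288). The groups did not overlap for these 4. The others were Lamp1, Npc1, Gusb, Sgsh, Ids, Asah1 and Smpd1, with differences from -0.81 to -0.51. The count was 6 on library sizes alone, 3 in the fit with only these groups, 5 without the GEMM library of 68702, 7 without that of BB30101 or the GL261 library of 80766, and 6 without that of 80767. On library sizes alone 14 of the 36 differences were positive, against 6 with TMM.

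Against Ly6C high blood monocytes, the circulating precursors of many tissue macrophages, BMDM of both models held more lysosomal RNA. GEMM BMDM were higher in 26 of the 36 genes (72.2%) and lower in 1 (2.78%), against 31.6% and 25.7% of all tested genes, with a median of 1.06 beside 0.08. GL261 BMDM were higher in 24 (66.7%) and lower in 3 (8.33%), against 34.1% and 28.9%, with a median of 0.69 beside 0.06. Both comparisons use the same 5 monocyte libraries. In each, 6 of 7 membrane proteins and all 3 proteases and protective proteins were higher, and the hydrolases of glycoproteins, glycolipid sugars and glycogen were higher for 7 of 9 in the GEMM and 8 of 9 in GL261.

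Gla differed most, standing at 7.74 to 11.1 CPM (median 9.54) in the 5 monocyte libraries, at 184, 155 and 99.2 CPM in GEMM BMDM and at 130, 157 and 181 CPM in GL261 BMDM. The fold changes were 3.98 ± 0.20 (adjusted p = 4.05e-11, edgeR) and 4.07 ± 0.20 (adjusted p = 3.04e-11). Every BMDM library was far above the highest monocyte library. Pla2g15 went from 33.6 to 47.9 CPM in monocytes to 433, 186 and 187 CPM in the GEMM (2.78 ± 0.28, adjusted p = 2.06e-07) and 255, 233 and 228 CPM in GL261 (2.60 ± 0.28, adjusted p = 3.28e-07). Naglu went from 16.9 to 26.6 CPM to 178, 115 and 132 CPM (2.67 ± 0.19, adjusted p = 3.32e-09) and 130, 136 and 206 CPM (2.82 ± 0.19, adjusted p = 1.62e-09). Gaa (2.39 and 2.34), Grn (2.35 and 2.29) and Tpp1 (2.12 and 2.01) followed. For all of these the groups did not overlap. Cd68 was 1.15 and 1.28 higher on the log2 scale and Lamp1 1.03 and 0.52.

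Few genes were higher in monocytes. Tfeb was lower in both BMDM groups (-0.95 ± 0.18, adjusted p = 0.000231, and -1.41 ± 0.19, adjusted p = 3.72e-06, edgeR). Ids (-0.49 ± 0.13, adjusted p = 0.00362) and Smpd1 (-0.41 ± 0.15, adjusted p = 0.0215) were lower in GL261 BMDM. Smpd1 did not pass without a filter, without the GL261 library of 80766 or without monocyte 64819. The number of lower genes was 2 in the GEMM without its library of 68702 or on library sizes alone, and 5 in GL261 without monocytes 64820 and 64821 or in the fit with only these groups. The neutrophil, Xist and Rn45s values of the monocytes given above moved with this comparison, and their part in it was not tested. Without the 2 libraries rich in Rn45s, 26 of the 27 GEMM calls and 24 of the 27 GL261 calls were kept. Gla, Ids, Lamp2 and Tfe3 lie on the X chromosome.

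Normal microglia, a resident population, were compared with the same monocytes. They were higher in 25 of the 36 genes (69.4%) and lower in 5 (13.9%), against 32.4% and 30.4% of all tested genes, with a median of 0.84 beside 0.01. Pla2g15 stood at 541, 646 and 539 CPM in normal microglia (3.87 ± 0.29, adjusted p = 2.04e-09, edgeR), Arsb at 365, 403 and 392 CPM against 20.5 to 38.1 CPM in monocytes (3.73 ± 0.28, adjusted p = 2.38e-09), Naglu at 144, 183 and 158 CPM (2.86 ± 0.19, adjusted p = 5.52e-10) and Tpp1 at 526, 588 and 551 CPM (2.06 ± 0.17, adjusted p = 8.52e-09). Each of these libraries was above all 5 monocyte libraries. The 5 genes that were lower in normal microglia were Psap, at 3380, 2882 and 2508 CPM against 4441 to 7413 CPM (-1.13 ± 0.23, adjusted p = 0.000332), Npc2 (-1.06 ± 0.13), Galns (-0.90 ± 0.21), Tfeb (-0.80 ± 0.18) and Lipa (-0.58 ± 0.24, adjusted p = 0.0403). Psap, Galns and Lipa were higher in GEMM BMDM than in monocytes, by 0.58, 0.89 and 1.82. In GL261 BMDM the values were 0.28, 0.98 and 0.47, of which that of Galns passed. The Psap difference in the GEMM did not pass by DESeq2, on library sizes alone, with only the groups compared or without monocytes 64820 and 64821. It also failed without the GEMM library of 68702, without monocyte 64817 or without monocyte 64820 alone. The Lipa difference in normal microglia did not pass without any 1 of the normal libraries, without monocytes 64819, 64820 or 64821, or without a filter.

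**Figure D5:**
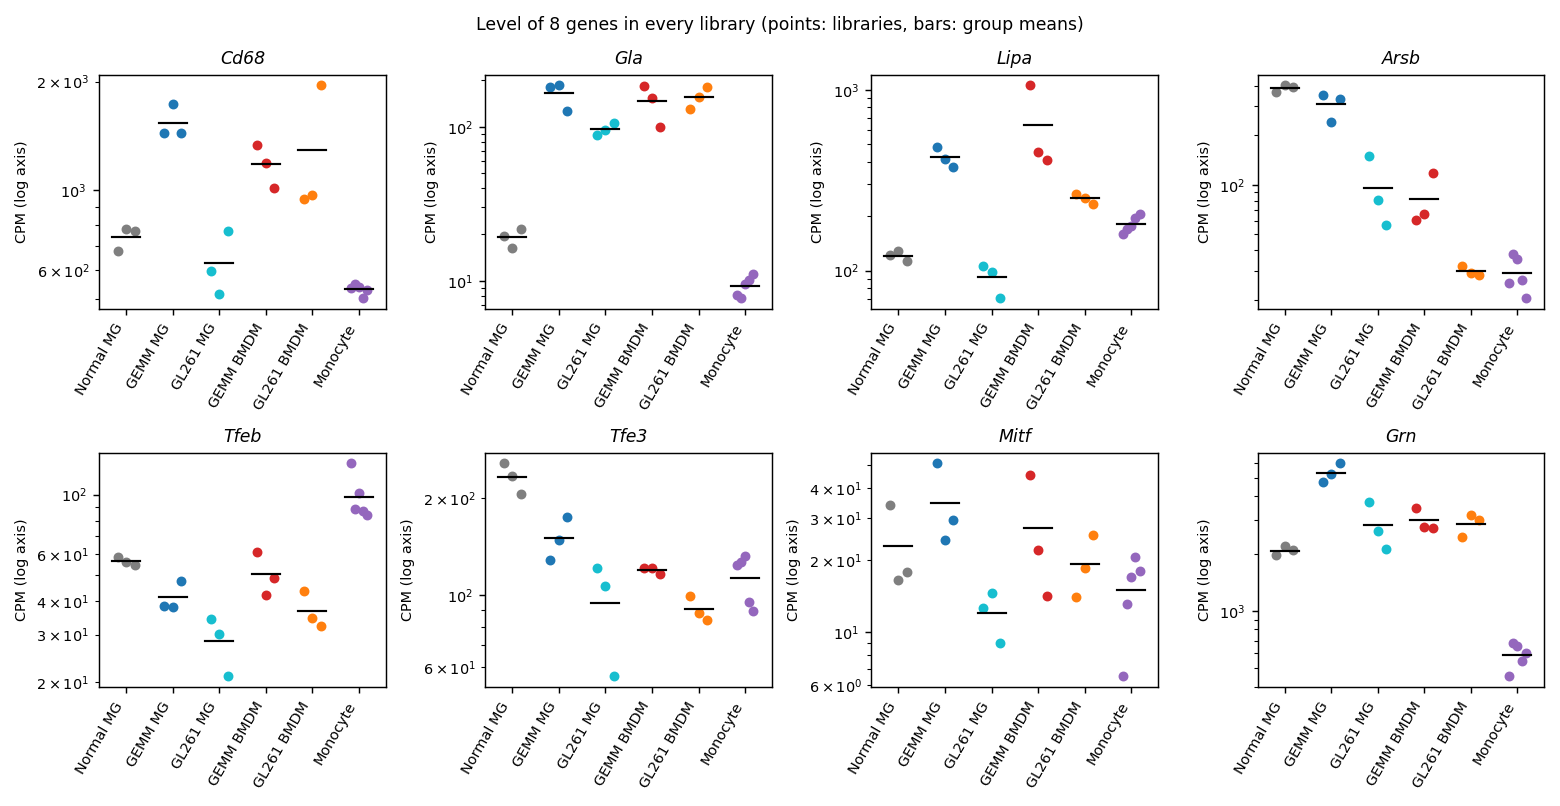
Level in CPM (y axis, log scale) of 8 genes in each library, by group (x axis), with bars at the group means. Gla is low in monocytes and normal microglia and high in all 4 tumour groups, and Lipa is lowest in GL261 microglia. Arsb and Tfe3 are highest in normal microglia, and Tfeb is highest in monocytes.

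The 3 regulators differed from one another in their order across groups. Tfeb was highest in monocytes (84.1 to 131 CPM, median 88.1), then in normal microglia (58.5, 56 and 54.4), GEMM BMDM (61, 42.1 and 49), GEMM microglia (38.4, 38.1 and 47.5), GL261 BMDM (43.5, 34.6 and 32.4) and GL261 microglia (34.4, 30.2 and 21). Only the monocytes lay clear of their neighbour in that order. Tfe3 was highest in normal microglia (256, 235 and 205 CPM), followed by GEMM microglia (128, 149 and 174), GEMM BMDM (122, 121 and 116), monocytes (89.3 to 133, median 123.8), GL261 microglia (122, 107 and 56.2) and GL261 BMDM (99.7, 88.3 and 83.9). Mitf was scarce everywhere, at 6.53 to 50.7 CPM, with group means from 12 in GL261 microglia to 34.7 in GEMM microglia, and no group lay clear of its neighbours in the order of the means.

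In GEMM microglia, where 18 of the 36 genes rose against normal, Tfe3 fell (-0.62), and Tfeb (-0.45 ± 0.20, adjusted p = 0.0731) and Mitf (0.60 ± 0.43, adjusted p = 0.268) did not pass by edgeR. The fall of Tfe3 did not pass without a filter, without normal microglia 67572 or 67573 or without GEMM microglia 68702 or BB30101 (-0.60 to -0.49). In GL261 microglia Tfeb (-0.98 ± 0.20, adjusted p = 0.000398) and Tfe3 (-1.29 ± 0.22, adjusted p = 8.47e-05) fell and Mitf stood at -0.92 ± 0.43 (adjusted p = 0.0768). None of the 3 passed between the lineages of either model or in the interaction, nor between the BMDM of the 2 models. Mitf passed in 1 comparison, GL261 against GEMM microglia, and not there without GL261 microglia 80769 (-1.36, adjusted p = 0.0603) or GEMM microglia 68702 (-1.25, adjusted p = 0.0566). Tfeb (-0.53) and Tfe3 (-0.66) passed in that comparison, but not without GL261 microglia 80769 or GEMM microglia BB30105. Neither passed with only the groups compared or on library sizes alone (-0.10 and -0.24 there), and Tfeb also failed without GL261 microglia 80767 or without a filter. Of the 3, Tfe3 was higher in normal microglia than in monocytes (1.03 ± 0.19, adjusted p = 0.000136). Over the 20 libraries, which share groups and depth, the Spearman correlation with the other 33 genes had a median of -0.28 for Tfeb (range -0.74 to 0.69), 0.30 for Tfe3 (-0.25 to 0.80) and 0.45 for Mitf (0.15 to 0.68), as a description.

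The 9 genes with a CACGTG in the promoter window are set beside the 23 without one as a description only. In GEMM against normal microglia 6 of 9 and 11 of 23 rose, with medians of 0.99 and 0.55 (23.0% of all tested genes rose). In GL261 against GEMM microglia 6 of 9 and 21 of 23 were lower, with medians of -0.78 and -0.96 (15.5% of all genes were lower), and in GEMM BMDM against monocytes 7 of 9 and 15 of 23 were higher, with medians of 1.06 and 0.98 (31.6% of all genes were higher).

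Other lysosomal genes were taken from lists that do not include the 36, and each count is to be read against the shares of all tested genes given above for the same comparison. In GEMM against normal microglia these shares were 23.0% higher and 20.9% lower, in GL261 against normal microglia 30.6% and 27.2%, and in GL261 against GEMM microglia 18.8% and 15.5%. Of 18 tested subunits of the vacuolar ATPase, which acidifies the lysosome, 13 rose in GEMM against normal microglia and the other 5 did not pass, with a median of 0.90. Atp6v0e (1.41 ± 0.13, adjusted p = 2.14e-07, edgeR) and Atp6v1a (1.55 ± 0.16, adjusted p = 1.26e-06) had the smallest p-values. In GL261 against normal microglia 5 rose and 3 fell, no more than the shares of all genes, with a median of 0.15. In GL261 against GEMM microglia 13 were lower, among them Atp6v1c1 (-1.06 ± 0.10, adjusted p = 2.98e-06), and 1 was higher, Atp6v0e2 (2.28 ± 0.46, adjusted p = 0.00115). Against monocytes 15 of the 18 passed in the BMDM of each model, all of them higher (31.6% of all genes were higher in the GEMM and 34.1% in GL261), while in normal microglia 7 were higher and 4 lower. Between lineages 1 of the 18 passed in the GEMM, where it was lower in BMDM, and in GL261 tumours 7 passed, each with more RNA in BMDM (against 10.7% of all genes higher).

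Of 23 tested hydrolases and activators outside the 36, 13 rose and 3 fell in GEMM against normal microglia with a median of 0.88, among those that rose Gm2a, the activator of ganglioside breakdown (1.56 ± 0.16, adjusted p = 9.35e-07, edgeR). In GL261 against GEMM microglia 15 were lower and 2 higher with a median of -0.85, Creg1 (-1.96 ± 0.23, adjusted p = 1.35e-05) among the lower ones. Of 16 genes of enzyme tagging and sorting, 6 rose in GEMM microglia and the rest did not pass, led by Gnptab, which adds the mannose 6-phosphate tag (2.02 ± 0.17, adjusted p = 1.01e-07), and it rose to a like extent in GL261 microglia (1.92 ± 0.17, adjusted p = 7.27e-08), where 3 rose and 7 fell. Of 27 tested membrane proteins and transporters, 7 rose and 5 fell in GEMM microglia, close to the shares of all genes, Cd63 rising by 2.97 ± 0.50 (adjusted p = 0.000137) and Cd164 falling (-1.40 ± 0.24, adjusted p = 0.000138), and 13 were lower and 1 higher in GL261 than in GEMM microglia.

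Of 21 tested nutrient-sensing genes, 6 rose and 4 fell in GEMM against normal microglia with a median of 0.04, close to the shares of all genes, Lamtor2 rising (0.89 ± 0.16, adjusted p = 0.000202, edgeR) and Rptor, the scaffold of mTORC1, falling (-1.65 ± 0.23, adjusted p = 1.87e-05). Of 26 autophagy genes, 6 rose and 12 fell with a median of -0.42. Gabarap, a ubiquitin-like protein of the autophagosome, rose (1.16 ± 0.13, adjusted p = 2.95e-06), and Pik3c3, the lipid kinase that starts autophagosome formation, fell (-0.93 ± 0.13, adjusted p = 1.81e-05). In GL261 against normal microglia 3 autophagy genes rose and 14 fell, with a median of -0.42.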

How the data were processed

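RNA of sorted cells was measured in 20 libraries. Libraries were made with a Smart-Seq kit, per the labels' protocols. Per the submitters' processing notes, the tools were STAR 2.5.0e and HTSeq on build mm10, besides CASAVA 1.8 and DESeq2, with no roles given. Strand setting and annotation are not stated there. The authors deposited raw counts per gene symbol, and these counts were used as deposited.

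The counts were fitted with edgeR 4.0.16 in R 4.3.3 (quasi-likelihood, robust, TMM) in 1 model over all 20 libraries and 6 groups, after a filter with a minimum count of 10 and a minimum total of 15. Benjamini-Hochberg adjustment ran over all 15363 genes kept, and a gene passed at an adjusted p under 0.05. Comparisons that share a group are not independent. CPM values use TMM-scaled library sizes. Alternatives were DESeq2 1.42.0, no filter, library sizes alone, only the groups compared, a replicate block, each library left out, and monocytes 64820 and 64821 left out. The replicate block was fitted to the tumour libraries only. Leaving out GL261 tumour 80769 was added after seeing the data. The procedure was tested on simulated data.

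The design says that microglia and BMDM came matched from 3 tumours, and their numbers in the labels give the pairs. Deviations from group means of same-numbered libraries correlated at 0.38, 0.37 and 0.28 (GEMM) and 0.51, 0.35 and 0.49 (GL261), so the numbers pair them.

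The 36 genes, the roles and the lists were chosen with earlier results of these data known. In each comparison up to 4 of the 36 per direction were named by size of change, Tfeb, Tfe3 and Mitf always, the levels of Lamp1, Lamp2 and Cd68 always, and up to 2 genes of each other list per direction by smallest p; further genes of the 36 were named after their values were seen. Coordinates and exon lengths come from GENCODE M21 (GRCm38), and promoters from RefSeq (GRCm38.p6). Some genes of the other lists are not reported here.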

Additional observations from a re-analysis of the deposited data

Results flagged for a closer look

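The difference between BMDM and microglia was itself different in the 2 tumour models for 5 genes, by the interaction term of edgeR's quasi-likelihood fit. The interaction was 1.43 for Cd68, 1.27 for Galns, 1.02 for Ctsa, 0.95 for Hexa and 0.82 for Npc2 on the log2 scale, and in each of the 5 the value of BMDM over microglia was below 0 in the GEMM and above 0 in GL261 tumours. Each call rests on 3 tumours per model. The replicate block pairs the libraries of a tumour and was fitted to the tumour libraries only. With it Cd68 passed (1.36, adjusted p = 0.0411), while Hexa (adjusted p = 0.0903), Galns (0.0735), Npc2 (0.0878) and Ctsa (0.0868) did not. None of the 5 passed with only the groups compared and no block, nor on library sizes without TMM.

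Microglia of the 2 models passed with opposite signs against the same normal libraries for 4 genes, a count that was not made over all tested genes. The GL261 falls did not pass on library sizes alone, and without GL261 microglia 80769 those of Scarb2, Hexa and Ctsa did not pass. That of Scarb2 also failed by DESeq2 and without any 1 of the normal libraries. The GL261 value minus the GEMM value was -1.34 for Scarb2, -1.05 for Hexa, -1.18 for Tpp1 and -1.26 for Ctsa on the log2 scale, and each of these differences passed edgeR's test (adjusted p = 0.000252, 9.49e-05, 0.000232 and 2.62e-05). Hexa and Ctsa were among the genes in both sets. The oligodendrocyte precursor or glioma list summed to 363 to 782 CPM in GL261 microglia and 127 to 184 CPM in GEMM microglia, although its gene Pdgfra was higher in GEMM microglia. The part of the list in these differences was not tested.

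Within the 5 monocyte libraries no single library stood apart from the others for any of the 36 genes by Dixon's criterion.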

How the results depend on the processing

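The genes named by size of change and the regulators that passed gave 758 values under the alternatives. Of these, 683 kept their direction and side of the threshold, 75 kept the direction but no longer passed, and 0 reversed. These genes were picked as called with the largest changes, so a reversal was unlikely from the start. The set leaves out Npc2 in the interaction and the falls of Scarb2, Hexa, Tpp1 and Ctsa in GL261 against normal microglia. Counts that moved by over 1.5 times are given here, and the causes were not tested. Calls over all tested genes also moved, as given above for the interaction and for GL261 BMDM against microglia. On library sizes alone, GL261 BMDM against microglia gave 5 higher, the interaction 0, GEMM against normal microglia 5 lower, GL261 against normal microglia 8 higher and 9 lower, GL261 against GEMM BMDM 6 lower, and GEMM BMDM against monocytes 2 lower. Without a filter, GL261 BMDM against microglia gave 7 higher and the interaction 1. DESeq2 gave 12 in the interaction. With only the groups compared, GL261 BMDM against microglia gave 1 higher and 1 lower, the interaction 0, GEMM against normal microglia 5 lower, GL261 against normal microglia 3 higher, GL261 against GEMM BMDM 3 lower, and GL261 BMDM against monocytes 5 lower. Without monocytes 64820 and 64821 that last count was also 5. Without GL261 tumour 80769, GL261 BMDM against microglia gave 5 higher and the interaction 1. With the replicate block, which uses the pairing and only the tumour libraries, the interaction gave 2.

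Leaving out 1 library at a time, GEMM BMDM against microglia gave 1 to 2 higher and 4 to 14 lower, GL261 BMDM against microglia 5 to 13 higher and 2 lower each time, and the interaction 0 to 11. GEMM against normal microglia gave 16 to 19 higher and 1 to 3 lower, GL261 against normal microglia 4 to 7 higher and 12 to 19 lower, and GL261 against GEMM microglia 25 to 31 lower. GL261 against GEMM BMDM gave 5 to 10 lower. Against monocytes GEMM BMDM gave 25 to 28 higher and 1 to 2 lower, GL261 BMDM 21 to 24 and 2 to 3, and normal microglia 23 to 25 and 4 to 5. The replicate block changed no direction among the 36 genes. Depth limits mainly the monocytes, the shallowest libraries, where Gla had 49 to 71 counts and Mitf 52 to 126.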

Other observations

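Some lysosomal genes outside the 36 differed between groups far more than any of them. Acp5, the tartrate-resistant acid phosphatase, averaged 0.503 CPM in normal microglia, 37.4 in GEMM microglia, 116 in GL261 microglia, and 25 in monocytes, whereas BMDM averaged 760 (GEMM) and 1180 (GL261). Its GL261 microglia values were 54, 39.4 and 255 CPM, the last from tumour 80769. Atp6v0d2, a subunit of the vacuolar ATPase known from osteoclasts, averaged 0.0616 CPM in normal microglia, 67.9 in GEMM BMDM and 226 in GL261 BMDM. Its GL261 BMDM values were 43.3, 12.7 and 622 CPM, and the high one came from tumour 80769. Both were chosen after their values were seen.

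Among the lists for sorting and nutrient sensing, Igf2r, the large mannose 6-phosphate receptor, averaged 0.462 CPM in normal microglia and 15.4 CPM in GL261 microglia (log2 fold change 5.02 ± 0.70, adjusted p = 1.02e-05, edgeR). Rragb, a Rag GTPase, averaged 0.530 and 15.4 CPM (4.84 ± 0.56, adjusted p = 1.28e-06). The Rragb values in GL261 microglia were 7.63, 8.27 and 30.3 CPM, with tumour 80769 again the highest. The sum of the oligodendrocyte precursor or glioma list was highest in the same GL261 libraries, and its part in these differences was not tested.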
